A study of Mus musculus with 10 samples.

Results

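The genes described here are 10 components of the bone morphogenetic protein (BMP) pathway: the ligand *Bmp4*, the extracellular inhibitor *Nog*, the receptors *Bmpr1a*, *Bmpr1b* and *Bmpr2*, the receptor-activated SMADs *Smad1*, *Smad5* and *Smad9*, and the inhibitory SMADs *Smad6* and *Smad7*. They are 10 of 21938 protein-coding genes in the annotation. Peaks of open chromatin from all 6 ATAC-seq libraries were merged into 108367 sites, and of these 127 lay in the body of one of the 10 genes or within 50 kb of it, with a transcription start site (TSS) of that gene as the nearest protein-coding TSS. By the same rule, 19 of 17468 merged regions of H3K4me3, a histone mark of active and poised promoters, belonged to them. The rule uses no measured value. The nearest TSS is a rule of distance, and a site may act on another gene.

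NSPCs, neural stem and progenitor cells cultured from the brains of C57BL/6 mice at postnatal day 5, were compared in 3 states. Activated NSPCs grew in 20 ng/ml FGF2 and 20 ng/ml EGF. Quiescent NSPCs were kept in 20 ng/ml FGF2 with 25 ng/ml BMP4 and without EGF, for 4 days by the sample labels and for a shorter time before ATAC-seq by the methods. Reactivated NSPCs spent 4 days with BMP4 and were then returned to FGF2 and EGF without BMP4 for 9 to 12 days. There were 2 ATAC-seq libraries for each state, and H3K4me3 ChIP-seq was done on quiescent and activated NSPCs, with 1 library and 1 input for each. The methods call the 2 replicates of the activated and quiescent states biologically independent, without naming the unit that was independent. Since BMP4 itself was added and EGF withdrawn to induce quiescence, quiescence, BMP4 exposure and the lack of EGF cannot be told apart in these samples. By the methods, activated NSPCs were also collected for ATAC-seq sooner after plating than quiescent NSPCs, and reactivated NSPCs were cultured longest. Time in culture therefore cannot be told apart from state either.

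BMP ligands bind a complex of type I and type II receptor kinases at the cell surface. The type II receptor phosphorylates the type I receptor, which phosphorylates SMAD1, SMAD5 and SMAD9, and these enter the nucleus with SMAD4 and bind DNA at target genes. SMAD6 and SMAD7 are inhibitors inside the cell and are well-known targets of the pathway they restrain, while Noggin, the product of *Nog*, binds ligands outside the cell and keeps them from the receptors. In the neurogenic niches of the brain, BMP signalling holds neural stem cells in quiescence and Noggin opposes it.

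The ATAC-seq lists held between 47037 and 60355 peaks in the quiescent and activated libraries, and 106270 and 106830 in the reactivated libraries. By the study's supplement, reactivated reads had been thinned ahead of peak calling. The strength of a peak is given as fold enrichment, the ratio of the pileup of reads at its summit to the background of the same library. At the 23116 sites with a peak in all 6 libraries, fold enrichment as deposited was higher in reactivated than in activated NSPCs by a median of 0.55 on the log2 scale, and lower in quiescent than in activated NSPCs by a median of 0.15. Quantile normalization took these shifts out before the test, so each difference called below is relative to the typical site. TSSs of 5 of 5 markers of neural stem and progenitor cells had a peak within 1 kb in all 6 libraries, as did 2 of 4 markers of neurons, 1 of 3 of astrocytes and 0 of 4 each of oligodendrocytes, microglia and endothelium. By state, astrocyte markers had a peak in both libraries at 1 of 3 in quiescent, 1 in activated and 2 in reactivated NSPCs, and H3K4me3 at 2 in quiescent and 1 in activated NSPCs. Of the 4 markers each, neurons had 2, 2 and 3, oligodendrocytes and microglia 0, 0 and 1, and endothelium 0, 1 and 1, with as many H3K4me3 promoters in both states. The part of other cell types in the results was not tested. In bulk samples, fewer open cells and less open chromatin per cell cannot be told apart.

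A peak was found at 52 and 55 of the 127 sites in the quiescent libraries, at 50 and 47 in the activated libraries, and at 99 and 94 in the reactivated libraries. These shares were close to those over all assigned sites, which were 41.2% and 44.6%, 42.0% and 35.4%, and 76.2% and 76.1%. Of the 127, 65 lay in introns, 10 in exons and 52 outside the gene, and 20 lay within 1 kb of a TSS. All 6 libraries had a peak at 26 sites (20.5%), against 23.6% of the 86028 sites that the rule assigned to any protein-coding gene. The largest number of sites belonged to *Bmpr1b*, with 32, followed by *Smad6* with 23, *Bmpr1a* with 14, *Smad5* and *Smad7* with 13 each, *Smad1* with 10, *Bmpr2* with 8, *Nog* and *Smad9* with 6 each and *Bmp4* with 2. *Bmpr1b* is also the longest of the 10 genes, so these numbers are not a density. At 36 sites only a single library had a peak.

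**Figure D1:**
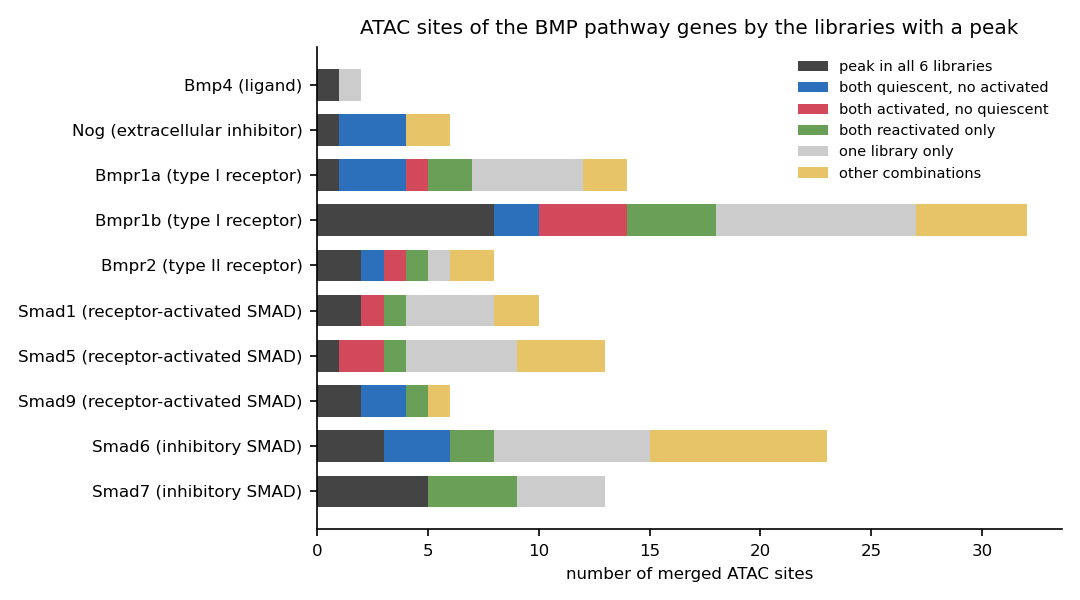
Number of merged ATAC-seq sites of each gene (x axis), with the bar split by which of the 6 libraries had a peak; the gene's role is given beside its name. *Nog*, *Smad9* and *Smad6* had sites with a peak in both quiescent and no activated library (3, 2 and 3) and none of the opposite kind, whereas *Smad1* and *Smad5* had only the opposite kind (1 and 2).

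Promoter accessibility was shared by 9 of the 10 genes. These 9 had an ATAC-seq peak within 1 kb of a TSS in all 6 libraries and H3K4me3 there in both states. The share over all protein-coding genes was not counted, so 9 of 10 is not set apart from other genes. Among other genes of the pathway, such ATAC-seq peaks were found for 8 of 10 receptors, 12 of 16 inhibitors and co-receptors, 6 of 7 targets, 3 of 3 SMADs and 4 of 11 ligands. By site, 11 of the 20 within 1 kb of a TSS had a peak in all 6 libraries, against 54.5% of such sites over all genes. The exception among the 10 genes was *Bmp4*, which had neither an ATAC-seq peak nor H3K4me3 at its TSSs. Its strongest site lay in an intron, 3.10 kb downstream of the nearer TSS (chr14:46387272-46387850), with a fold enrichment of 5.26 and 4.59 for quiescent, 3.98 and 4.56 for activated and 6.29 and 7.40 for reactivated NSPCs. The lower quiescent value lay just above the higher activated one, and the difference did not pass the test (log2 0.43 ± 0.23 SE, adjusted p = 0.275). H3K4me3 at the same place covered 1067 bp in quiescent and 970 bp in activated NSPCs.

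Sites with a peak in all 6 libraries were tested in one limma fit over the 23116 such sites, with p-values adjusted over all of them and called under 0.05. Of the 26 sites of the BMP pathway genes, 6 were called higher in quiescent than in activated NSPCs, where 4.63% of all sites tested were called, and 2 were called higher in activated NSPCs, where 6.03% of all sites were. The higher sites in quiescent NSPCs were the promoters of *Smad6*, *Nog* and *Smad9*, an intronic site of *Smad7*, an intronic site of *Bmpr2* and a site beyond the 3′ end of *Bmpr1b*. The higher sites in activated NSPCs were an internal promoter of *Bmpr1b* and a site downstream of *Smad7*. The median log2 difference of the 26 sites was 0.08, against 0.02 over all sites, with 14 above 0 and 12 below. At an unadjusted p under 0.05 there were 13 of the 26, against 23.9% of all sites. The 6 fell to 2 without quiescent replicate 1 or activated replicate 1, to 3 without quiescent replicate 2 and to 4 without any other library. With no scaling, 3 sites were called higher in quiescent and 3 in activated NSPCs, against 1.91% and 9.46% of all sites. The alternatives counted for each site below are those in which it had a peak in every library used. An exact permutation test of 2 libraries against 2 cannot go below p = 0.333, and none was used.

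The sequences of some of the sites that differed are shown from the plus strand of GRCm38.p6, within 100 bases on each side of the summit and cut at 30 bases past a TSS. The first set were more open in quiescent NSPCs by the test or had a peak there in both quiescent and no activated library. Capitals mark exact matches to GTCTAGAC, the palindromic SMAD-binding element, or to GGCGCC, a GC-rich site of SMAD1 and SMAD5.

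Smad6 promoter, chr9:64022030-64022157: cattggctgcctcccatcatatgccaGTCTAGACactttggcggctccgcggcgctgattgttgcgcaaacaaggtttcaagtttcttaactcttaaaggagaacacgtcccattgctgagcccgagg
Nog promoter, chr11:89302656-89302855: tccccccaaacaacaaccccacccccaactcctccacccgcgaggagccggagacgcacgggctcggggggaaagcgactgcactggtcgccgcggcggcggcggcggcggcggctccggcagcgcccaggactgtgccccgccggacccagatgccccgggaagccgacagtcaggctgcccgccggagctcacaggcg
Smad9 promoter, chr3:54755455-54755611: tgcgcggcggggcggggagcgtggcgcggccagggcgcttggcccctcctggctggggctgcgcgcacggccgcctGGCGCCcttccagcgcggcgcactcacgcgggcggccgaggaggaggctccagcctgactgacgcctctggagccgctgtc
Smad6 upstream site, chr9:64067001-64067200: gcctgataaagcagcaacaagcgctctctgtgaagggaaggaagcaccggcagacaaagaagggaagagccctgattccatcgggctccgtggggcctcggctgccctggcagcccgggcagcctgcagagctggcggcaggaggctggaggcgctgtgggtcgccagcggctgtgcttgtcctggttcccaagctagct
Bmpr2 intronic site, chr1:59833811-59834010: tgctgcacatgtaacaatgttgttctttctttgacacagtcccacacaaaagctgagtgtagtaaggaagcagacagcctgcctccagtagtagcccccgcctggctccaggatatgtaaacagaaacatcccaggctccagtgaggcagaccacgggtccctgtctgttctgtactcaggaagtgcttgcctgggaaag

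The second set, more open in activated NSPCs by the same criteria, is 2 sites of type I receptors, and neither holds a match. The called sites of *Smad7* and the site beyond *Bmpr1b* are not shown.

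Bmpr1b internal start, chr3:141931494-141931604: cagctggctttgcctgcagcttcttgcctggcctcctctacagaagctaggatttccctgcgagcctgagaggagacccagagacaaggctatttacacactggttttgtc
Bmpr1a intronic site, chr14:34454940-34455139: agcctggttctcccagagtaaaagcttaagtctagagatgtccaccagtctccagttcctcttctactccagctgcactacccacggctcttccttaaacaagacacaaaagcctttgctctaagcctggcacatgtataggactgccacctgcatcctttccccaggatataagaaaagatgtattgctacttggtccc

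In windows of 200 bases around the summit, GTCTAGAC was found at 1 of the 127 sites, the *Smad6* promoter, and at 0.226% of all 108367 sites. There it spans the first TSS of the gene, from 64022056 to 64022063. GGCGCC was found at 16 of the 127 sites (12.6%, against 6.18% of all sites), including the promoters of *Bmpr1a*, *Bmpr1b*, *Bmpr2*, *Smad5*, *Smad7* and *Smad9*. TGAGTCA, the AP-1 site, was found at 3 (2.36%, against 5.47%), and the palindrome of nuclear factor I, with half-sites TTGGC and GCCAA that lie 5 bases apart, at 0 (against 0.105%). Both strands were searched, and no motif searched contains another. These matches are a description of the letters and not of binding.

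The inhibitors *Smad6*, *Smad7* and *Nog* accounted for 3 of the 6 sites that were higher in quiescent NSPCs, and held 3, 5 and 1 of the 26 sites tested. At the *Smad6* promoter (chr9:64021736-64022340), fold enrichment was 7.53 and 5.41 for quiescent, 4.12 and 3.13 for activated and 4.11 and 4.59 for reactivated NSPCs. Both quiescent libraries lay above the other 4 (quiescent against activated, log2 1.09 ± 0.23 SE, adjusted p = 0.00610). The call was lost without quiescent replicate 1 (adjusted p = 0.0654) and without activated replicate 2 (0.0763), and with missing peaks set at the lowest value of their list, a fit over more sites (0.0615). The adjusted p ranged from 0.00373 to 0.0763 over 13 alternatives. A second site of *Smad6*, 1017 bp upstream of the TSS, had 4.38 and 2.99 for quiescent and 4.60 and 3.98 for activated NSPCs, with a log2 difference of -0.0062 ± 0.23 SE (adjusted p = 0.992).

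At the *Nog* promoter (chr11:89301863-89303239, 423 bp upstream of the TSS and overlapping the long non-coding RNA *Gm2018*), fold enrichment was 7.40 and 5.99 for quiescent, 4.68 and 4.34 for activated and 6.09 and 6.23 for reactivated NSPCs. The quiescent and activated libraries did not overlap (log2 0.76 ± 0.22 SE, adjusted p = 0.0317). This call was weak: it was lost when any of the 6 libraries was left out, with an adjusted p between 0.0510 and 0.177, and with no scaling (0.145).

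At *Smad7*, the intronic site 8.68 kb downstream of the nearest TSS (chr18:75378397-75378952) had a fold enrichment of 5.26 and 6.11 for quiescent, 2.65 and 3.71 for activated and 7.35 and 7.24 for reactivated NSPCs. The activated libraries were the lowest, with no overlap (quiescent against activated, log2 1.10 ± 0.25 SE, adjusted p = 0.0101). Without quiescent replicate 2 the adjusted p was 0.0953 and without activated replicate 1 it was 0.106, with missing peaks at the lowest value it was 0.135, in a range from 0.00594 to 0.135 over 13 alternatives. The other called site of *Smad7* went the opposite way. It lay 64.7 kb downstream of the nearest *Smad7* TSS, within the neighbouring gene *Ctif* (chr18:75434405-75435300), with 3.16 and 4.36 for quiescent, 9.62 and 8.11 for activated and 13.8 and 12.4 for reactivated NSPCs. The quiescent libraries were the lowest (log2 -1.03 ± 0.22 SE, adjusted p = 0.00582), and the call was lost without quiescent replicate 1 (0.100) and with missing peaks at the lowest value (0.0615, in a range from 0.00141 to 0.100 over 14 alternatives). At the *Smad7* promoter itself, 118 bp upstream of the TSS, fold enrichment was 5.95 and 6.91 for quiescent and 4.83 and 4.30 for activated NSPCs, and the difference fell short of the threshold (log2 0.68 ± 0.22 SE, adjusted p = 0.0598). A second promoter site of *Smad7*, 829 bp upstream, had 5.95 and 4.61 for quiescent and 6.08 and 5.81 for activated NSPCs (log2 0.04 ± 0.22 SE, adjusted p = 0.937).

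Among the receptors, the site with the firmest call lay in an intron of *Bmpr2*, the type II receptor, 70.5 kb downstream of its TSS (chr1:59833695-59834106). Fold enrichment there was 10.5 and 10.1 for quiescent, 4.51 and 5.85 for activated and 15.1 and 15.8 for reactivated NSPCs. The activated libraries were lower than the other 4 (quiescent against activated, log2 1.08 ± 0.19 SE, adjusted p = 0.00165). It was the only one of the 8 sites whose call was kept without each library in turn and in every one of 15 alternatives (adjusted p from 0.000106 to 0.0395). The *Bmpr2* promoter showed no such difference, with 7.46 and 8.33 for quiescent and 10.2 and 10.4 for activated NSPCs (log2 -0.21 ± 0.18 SE, adjusted p = 0.530).

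*Bmpr1b*, a type I receptor, had called sites in both directions. The site 120 kb downstream of the nearest *Bmpr1b* TSS lay past the end of the gene and within *Unc5c* (chr3:141811418-141811719), with 7.49 and 5.66 for quiescent, 3.71 and 4.14 for activated and 10.5 and 10.7 for reactivated NSPCs. It was higher in quiescent than in activated NSPCs (log2 0.94 ± 0.22 SE, adjusted p = 0.0101), a call that was lost without quiescent replicate 1 (0.108), without activated replicate 1 (0.0692) and with no scaling (0.0523), in a range from 0.00471 to 0.108 over 14 alternatives. An internal start of *Bmpr1b*, 19 bp from the TSS of a shorter transcript (chr3:141931310-141931843), had 4.32 and 3.44 for quiescent, 8.79 and 6.24 for activated and 7.86 and 8.59 for reactivated NSPCs. Here the quiescent libraries were the lowest (log2 -0.71 ± 0.21 SE, adjusted p = 0.0406), but the call was lost without any one of the 6 libraries (0.0636 to 0.202). The first promoter of the gene had 6.38 and 7.79 for quiescent, 10.5 and 10.4 for activated and 15.8 and 13.9 for reactivated NSPCs, and it did not pass the test between quiescent and activated NSPCs (log2 -0.38 ± 0.17 SE, adjusted p = 0.183). At the promoter of *Bmpr1a*, the other type I receptor, the 4 libraries lay between 8.42 and 10.9 (log2 0.27 ± 0.15 SE, adjusted p = 0.314).

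Of the 3 receptor-activated SMADs, only *Smad9* had a promoter called between quiescent and activated NSPCs. Its fold enrichment (chr3:54755292-54755707) was 5.96 and 4.50 for quiescent, 4.24 and 3.28 for activated and 11.9 and 10.7 for reactivated NSPCs (quiescent against activated, log2 0.74 ± 0.22 SE, adjusted p = 0.0404). The quiescent and activated libraries lay close, and leaving out any of the 6 libraries ended the call (adjusted p from 0.0580 to 0.223), as did no scaling (0.255) and missing peaks at the lowest value (0.0907). The promoter of *Smad1* was among the most even, at 9.27 and 8.97 for quiescent and 9.21 and 9.44 for activated NSPCs (log2 0.11 ± 0.16 SE, adjusted p = 0.741). That of *Smad5* had 5.98 and 7.15 for quiescent and 8.58 and 7.37 for activated NSPCs (log2 -0.09 ± 0.20 SE, adjusted p = 0.846). The difference between *Smad9* and the other SMADs was not tested.

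**Figure D2:**
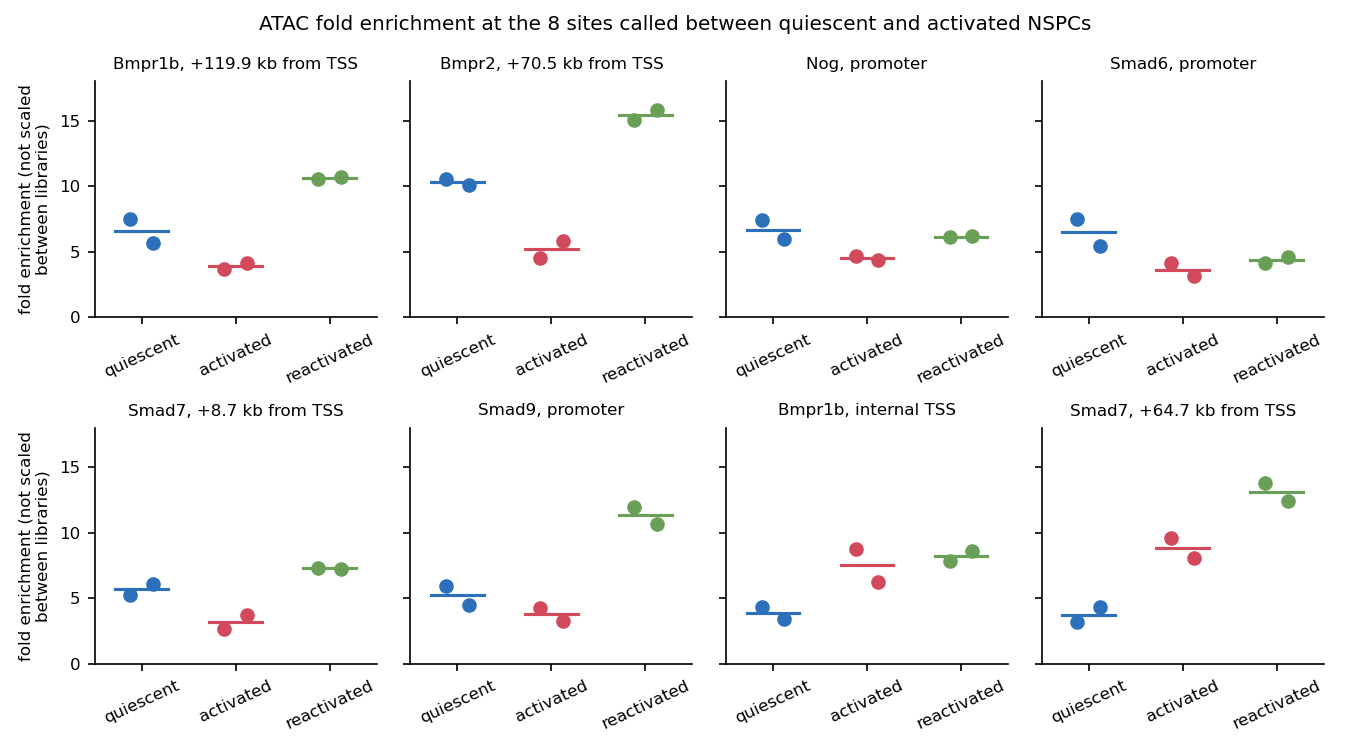
Fold enrichment in the authors' peak lists (y axis, not scaled between libraries) at the 8 sites called between quiescent and activated NSPCs; points are the 2 libraries of each state and lines their mean. The first 6 panels are sites higher in quiescent NSPCs, such as *Bmpr2* at 10.5 and 10.1 against 4.51 and 5.85, and the last 2 panels are sites higher in activated NSPCs.

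Sites that the test could not include, since a library had no peak, were described by the libraries that had one. Both quiescent and no activated library had a peak at 14 of the 127 sites (11.02%), against 5.82% of all assigned sites. Both activated and no quiescent library had a peak at 9 (7.09%, against 4.02%). Among all assigned sites more than 1 kb from a TSS, where 107 of the 127 sites lay, these shares were 7.14% and 4.60%. With every list limited to its 47037 strongest peaks, the length of the shortest, the balance turned: 8 of 77 sites were quiescent-specific (10.4%, against 8.15% of all assigned sites) and 12 were activated-specific (15.6%, against 7.18%). Without quiescent replicate 2 there were 23 quiescent-specific and 15 activated-specific sites, since fewer libraries had to hold or to lack a peak. Peaks with a −log10 q of at least 10 gave 6 and 5. These counts were not tested.

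The strongest quiescent-specific site lay 45.04 kb upstream of *Smad6* (chr9:64066675-64067291), outside any gene. Its fold enrichment was 8.30 and 6.55 in quiescent NSPCs, at percentiles 87.8 and 82.8 of their lists, no activated library had a peak, and the reactivated libraries had 5.20 and 5.72. *Smad6* had 2 more such sites, in introns 24.4 and 54.1 kb downstream of the TSS, so that all its state-specific sites were of the quiescent kind. A peak was found at 12 and 10 of its 23 sites in quiescent NSPCs, at 6 and 6 in activated NSPCs, and at 17 and 14 in reactivated NSPCs. The counts did not overlap between states, and over all assigned sites the shares with a peak were 41.2% and 44.6%, 42.0% and 35.4%, and 76.2% and 76.1%, higher in the reactivated libraries as well. *Nog* had 3 quiescent-specific sites, of which the strongest lay 16.1 kb upstream (chr11:89318311-89318852) with 5.13 and 3.90 in quiescent and 2.94 and 4.52 in reactivated NSPCs. The other 2, 17.5 kb upstream (2.72 and 2.45) and 3.06 kb downstream (2.12 and 2.32), were weak and had no peak in any reactivated library. *Smad9* had 2, in introns 0.35 and 20.9 kb downstream.

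*Bmpr1a* had sites of both kinds in its introns. The site 6.62 kb downstream of an internal TSS (chr14:34453782-34454261) had 4.73 and 3.82 in quiescent NSPCs, no activated peak, and 7.73 and 6.25 in reactivated NSPCs. About 1 kb away, the site 5.52 kb downstream (chr14:34454915-34455271) was activated-specific, with 6.23 and 3.99 in activated NSPCs, no quiescent peak, and 10.7 and 8.09 in reactivated NSPCs. An intronic site of *Bmpr1b*, 10.1 kb downstream of the internal start, was activated-specific as well, with 6.23 and 4.28 in activated NSPCs. *Bmpr1a* had 3 quiescent-specific sites and 1 activated-specific site, *Bmpr1b* had 2 and 4, and *Bmpr2* had 1 and 1.

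*Smad1* and *Smad5* had activated-specific sites only, 1 and 2, and these were weak, with fold enrichments from 2.63 to 4.56 in activated NSPCs. A much stronger site lay 31.5 kb upstream of *Smad5* (chr13:56671149-56671709). It had 10.5 and 7.13 in activated and 15.1 and 15.9 in reactivated NSPCs, whereas for quiescent NSPCs only replicate 2 had a peak, of 1.99. Quiescent replicate 2 was the most deeply sequenced library by the study's supplement. A peak was found at 1 and 5 of the 13 sites of *Smad5* in quiescent NSPCs, at 7 and 7 in activated NSPCs and at 11 and 8 in reactivated NSPCs, where the shares over all assigned sites were 41.2% and 44.6%, 42.0% and 35.4%, and 76.2% and 76.1%. The depth of quiescent replicate 2 moves with these quiescent counts, and its part in them was not tested.

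All 9 activated-specific sites had a peak in both reactivated libraries, against 92.4% of activated-specific sites over all genes. Of the 14 quiescent-specific sites, 9 did, against 57.01% over all genes. The 5 that did not were 2 of *Nog*, 2 of *Bmpr1b* (2.18 and 3.24 kb upstream of the nearest TSS) and 1 of *Bmpr1a* (19.9 kb downstream). A peak in both reactivated libraries alone was found at 16 sites (12.6%, against 14.6% of all assigned sites), and the strongest of these, an intergenic site beyond the end of *Smad7* and 35.9 kb downstream of its nearest TSS, had 8.29 and 7.98.

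In the bases that peaks covered, H3K4me3 differed most at the promoter regions of the inhibitors. In fold enrichment it differed most at *Smad6* and *Nog*, while the *Smad7* promoter was nearly the same in both states. All 19 regions were present in both states. With the median ratio over 15572 regions found in both states taken out (1.07 for width and 1.08 for fold enrichment over input, quiescent over activated), 3 were over 1.5-fold wider in quiescent NSPCs, where 4.84% of all regions were, and these were the promoter regions of *Smad7*, *Smad6* and *Nog*. None was over 1.5-fold wider in activated NSPCs, where 1.74% of all regions were. With 1 library for each state these are differences between 2 libraries, with no replicate and no test.

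At *Smad7*, H3K4me3 covered 9994 bp in quiescent and 3478 bp in activated NSPCs, a ratio of 2.69 after the median was taken out, at percentile 99.5 of all regions. The region grew into the gene, from 2139 bp downstream of the first TSS in activated to 8485 bp in quiescent NSPCs, while its upstream edge was similar (1338 and 1508 bp). The intronic ATAC-seq site that was higher in quiescent NSPCs lies beyond this edge. Fold enrichment over input was nearly the same, at 35.1 and 36.6.

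At *Smad6*, H3K4me3 covered 7075 bp in quiescent and 2661 bp in activated NSPCs, a ratio of 2.49, at percentile 99.3. It reached 5631 bp into the gene in quiescent and 1649 bp in activated NSPCs. Fold enrichment differed as well, at 38.3 in quiescent and 14.1 in activated NSPCs, a ratio of 2.52 at percentile 99.9. At *Nog*, it covered 6091 bp in a single peak in quiescent NSPCs and 3534 bp in 2 peaks in activated NSPCs, a ratio of 1.62 at percentile 96.3. The outer edges at *Nog* lay 4351 and 4137 bp downstream and 1739 and 1292 bp upstream of the TSS, and between its 2 peaks the activated library had a gap. Its fold enrichment was 46.3 and 21.8, a ratio of 1.97 at percentile 99.7.

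*Smad6* and *Nog* were thus the 2 of 19 regions that were over 1.5-fold stronger in quiescent NSPCs, where 3.38% of all regions were. There were also 2 over 1.5-fold stronger in activated NSPCs, where 2.76% of all regions were. One lay 24.7 kb upstream of *Smad7* with 14.4 in quiescent and 24.1 in activated NSPCs, and the other was a weak region 5.47 kb upstream of the internal start of *Bmpr1b*, with 2.88 and 4.71.

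The other promoter regions stayed within 1.5-fold once the median ratio was taken out; at *Bmpr2* the ratio of widths was 1.51 before and 1.42 after. Widths were 7915 and 5231 bp at *Bmpr2*, 4611 and 3459 bp at *Bmpr1a*, 1725 and 1153 bp at *Smad9*, 1915 and 2081 bp at *Bmpr1b*, 2584 and 2606 bp at *Smad1*, and 2903 and 2832 bp at *Smad5*, in quiescent and activated NSPCs. By the bases that peaks covered, the ratio of widths was thus largest at the 3 inhibitor genes. At *Nog* this measure leaves out the gap between the 2 activated peaks, and its outer edges were similar in both states. The receptor-activated SMADs *Smad1* and *Smad5* were almost equal between the libraries.

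**Figure D3:**
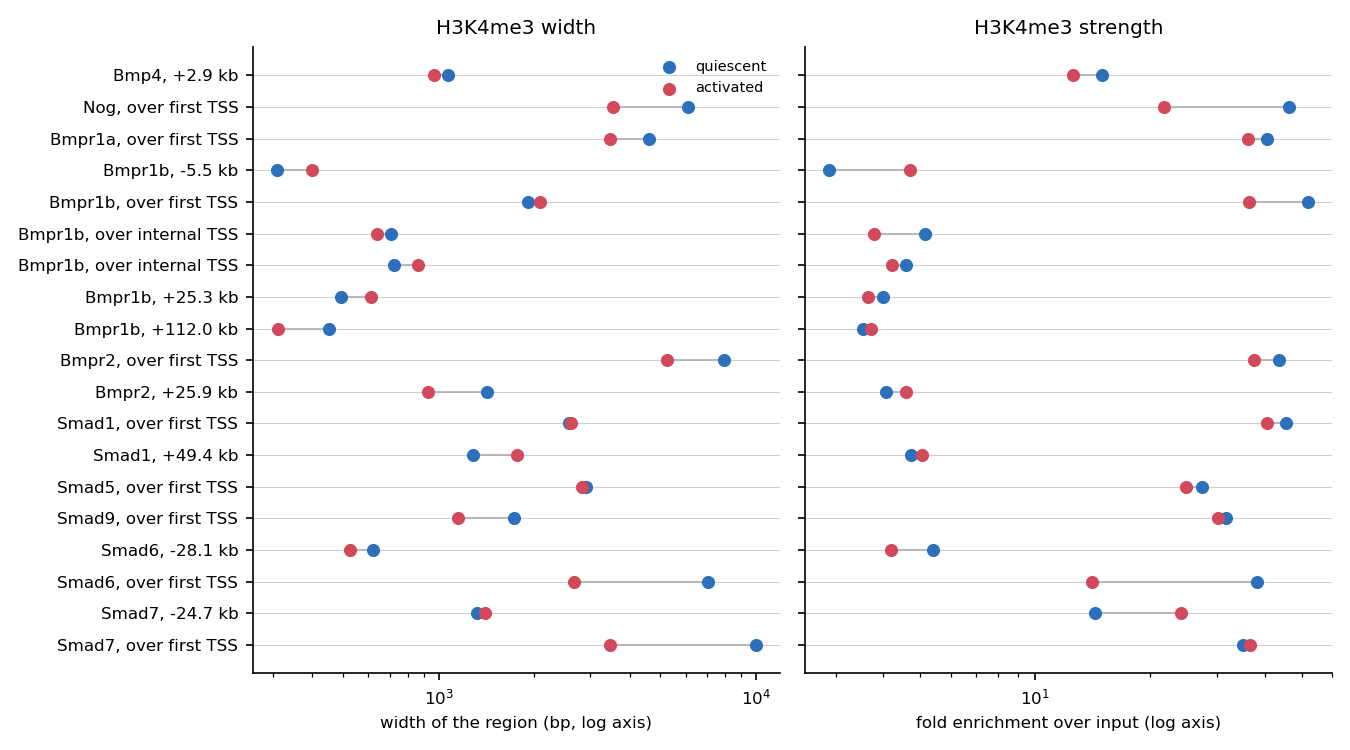
Width in bp (left) and fold enrichment over input (right), both on log axes, of the 19 H3K4me3 regions of the BMP pathway genes; each point is the single library of a state, and a line joins the 2 states. *Smad7* (9994 and 3478 bp), *Smad6* (7075 and 2661 bp) and *Nog* (6091 and 3534 bp) have the largest ratios of bases covered by peaks among the regions over a first TSS.

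*Smad6* and *Nog* each had a promoter called more accessible in quiescent NSPCs (calls lost in 3 of 13 alternatives at *Smad6* and in 7 of 15 at *Nog*), state-specific sites of the quiescent kind alone, and H3K4me3 that was both wider and stronger in quiescent NSPCs. *Smad9*, not an inhibitor, also had such a promoter call (lost in 8 of 14 alternatives) and state-specific sites of the quiescent kind alone. Its H3K4me3 stayed within 1.5-fold, with a width ratio of 1.40 after the median was taken out. Much of the difference in width at *Nog* was the gap between its 2 activated peaks, and the outer edges were similar. At *Smad6*, a weaker H3K4me3 region 28.1 kb upstream had 5.39 in quiescent and 4.18 in activated NSPCs. The ATAC-seq site 53.2 kb downstream, the strongest in its introns, had 5.93 and 7.70 for quiescent, 3.85 and 5.36 for activated and 8.73 and 9.34 for reactivated NSPCs, and did not pass the test (log2 0.74 ± 0.25 SE, adjusted p = 0.0667).

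**Figure D4:**
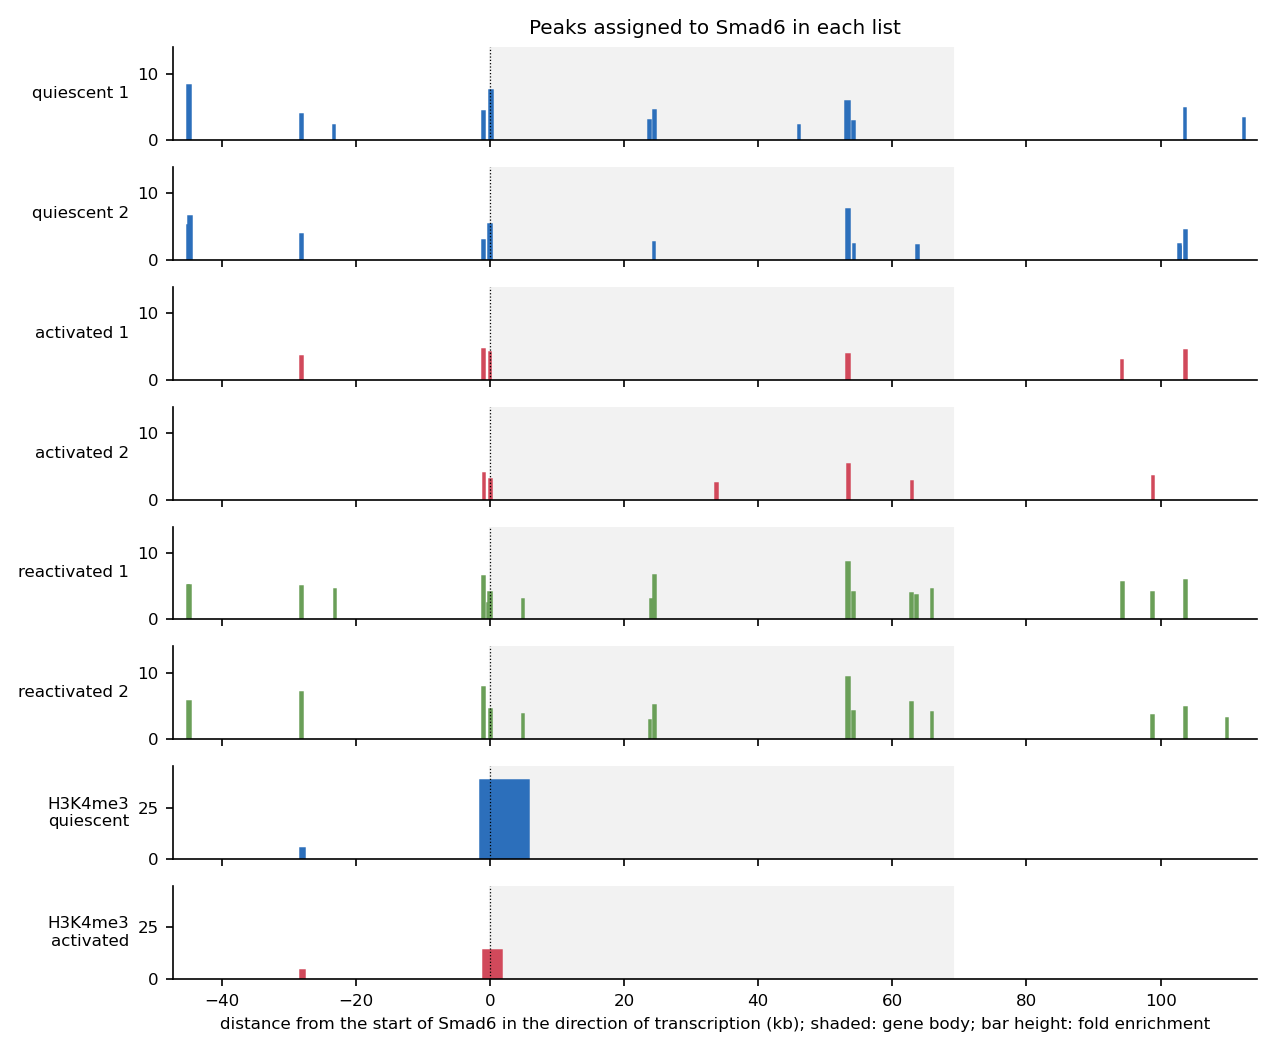
Peaks assigned to *Smad6* in the 6 ATAC-seq and 2 H3K4me3 lists, by distance from its start in kb (x axis); bar height is fold enrichment and the shaded area is the gene. The peaks 45.04 kb upstream are present in the quiescent and reactivated lists and absent from the activated lists, and H3K4me3 reaches 5631 bp into the gene in quiescent and 1649 bp in activated NSPCs.

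The reactivated libraries were compared with both other states in the same fit. These comparisons share libraries with each other and with the first. Of the 26 sites, 4 were called higher in reactivated than in activated NSPCs (9.31% of all sites) and 4 lower (8.92%). Against quiescent NSPCs, 2 were called higher (13.6%) and 7 lower (14.1%). In all, 15 of the 26 sites were called in at least 1 of the 3 contrasts, as were 37.5% of all sites. Calls against the reactivated state depended on the scaling: with fold enrichment as deposited, 12 sites were higher than in activated NSPCs and 0 lower, against 52.6% and 0.472% of all sites, and 14 were higher than in quiescent NSPCs and 1 lower, against 68.2% and 0.545%. With missing peaks at the lowest value, no member site was called between reactivated and activated NSPCs, where 0.00401% of all sites were called higher and 0.0120% lower.

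The intronic *Bmpr2* site was higher in reactivated than in activated NSPCs (log2 1.07 ± 0.19 SE, adjusted p = 0.00232), as it was in quiescent NSPCs. The site beyond *Bmpr1b* (0.79 ± 0.22, adjusted p = 0.0205) and the *Smad9* promoter (1.004 ± 0.22, adjusted p = 0.00715) were also higher in reactivated NSPCs by the same test. The call beyond *Bmpr1b* was lost without activated replicate 1 and without either reactivated library (up to 0.130), and that at *Smad9* without activated replicate 2 (0.0610) and without reactivated replicate 1 (0.0973). An intronic *Smad9* site 9.08 kb downstream was the only one called higher in reactivated NSPCs than in both other states, with 3.16 and 2.14 for quiescent, 3.71 and 3.14 for activated and 8.005 and 10.1 for reactivated NSPCs (adjusted p = 0.0408 against activated and 0.00622 against quiescent). The first of these calls was lost without either activated or either reactivated library (up to 0.241), and the second without quiescent replicate 2 (0.0947), without reactivated replicate 2 (0.0766) and with missing peaks at the lowest value (0.0858).

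At the promoter sites nearest the TSS of the inhibitors, the reactivated libraries were below the quiescent libraries after scaling. The log2 difference was -1.27 ± 0.23 SE at *Smad6* (adjusted p = 0.00127), -1.09 ± 0.22 at *Smad7* (0.00243) and -0.95 ± 0.22 at *Nog* (0.00457). The second promoter site of *Smad7*, 829 bp upstream, was not called (-0.43 ± 0.22, adjusted p = 0.147). Nor was the second site of *Smad6*, 1017 bp upstream (0.10 ± 0.23, adjusted p = 0.773). Of the 7 calls lower than in quiescent NSPCs, 5 were kept without each library in turn. They were these 3 calls, the *Bmpr1a* promoter and the site 22.4 kb upstream of *Bmpr1b*. Without scaling the differences at *Smad6*, *Smad7* and *Nog* kept their sign but not the call, at -0.56, -0.31 and -0.11. The promoters of *Bmpr1a* (-0.76 ± 0.15, adjusted p = 0.00250) and *Smad5* (-0.67 ± 0.20, adjusted p = 0.0190) were also lower in reactivated than in quiescent NSPCs after scaling. Without scaling the difference at *Bmpr1a* was -0.021 (adjusted p = 0.925). At *Smad5* the sign turned without it (0.18) and the call was lost without quiescent replicate 2 (0.139) and without either reactivated library. Against activated NSPCs, the promoters of *Bmpr1a*, *Bmpr2* and *Smad5* were lower in reactivated NSPCs after scaling, at -0.49, -0.54 and -0.76, and without scaling the first 2 turned to 0.15 and 0.08 and that of *Smad5* was -0.10 (adjusted p = 0.708). The call at *Bmpr1a* was lost without any one of the 6 libraries (adjusted p up to 0.198), that at *Bmpr2* without either quiescent library, activated replicate 2 or reactivated replicate 1 (up to 0.347), and that at *Smad5* without activated replicate 2 or either reactivated library (up to 0.0881).

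The remaining calls were at *Bmpr1b* and *Smad7*. The site 22.4 kb upstream of *Bmpr1b* had 13.5 and 12.7 for quiescent, 10.3 and 11.8 for activated and 6.67 and 11.7 for reactivated NSPCs. It was called lower in reactivated NSPCs against both other states (adjusted p = 0.00855 and 0.000835), but the 2 reactivated libraries differed, and the call against activated NSPCs was lost without the first (0.0973), without activated replicate 2 (0.0983) and with no scaling (log2 -0.32, adjusted p = 0.219). The call against quiescent NSPCs was kept without each library in turn and with no scaling (log2 -0.57, adjusted p = 0.0274). It was lost with missing peaks at the lowest value (0.0539). The site 1.66 kb upstream of the internal start was called lower than in quiescent NSPCs (-0.84 ± 0.22, adjusted p = 0.01001), which was lost without quiescent replicate 1 and without either reactivated library (up to 0.0881), and without scaling the difference was -0.012 (adjusted p = 0.967). The site 64.7 kb downstream of the nearest *Smad7* TSS was higher in reactivated than in quiescent NSPCs (1.04 ± 0.22, adjusted p = 0.00299), a call lost without quiescent replicate 1 (0.0545) and without reactivated replicate 1 (0.0520).

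Of 47 other genes of the BMP and TGF-β pathways, all ligands, receptors, SMADs, inhibitors and targets on a list, 346 sites were assigned and 73 tested. Of the 73, 3 were called higher in quiescent and 8 higher in activated NSPCs, where 4.63% and 6.03% of all sites were. The 3 were a promoter of the target *Msx2*, an intronic site of *Smurf1*, a ubiquitin ligase that acts on SMADs, and a site of the co-receptor *Tgfbr3*. Among the 8 was the promoter of the ligand *Bmp2*, with 3.01 and 3.13 for quiescent and 6.61 and 7.29 for activated NSPCs (log2 -1.01 ± 0.23 SE, adjusted p = 0.00848). The others belonged to *Bmper*, *Rgmb*, *Ski*, *Tgfbr2*, *Twsg1* and, at 2 sites, *Tgfbr3*. Whether these counts differ from those of the 10 genes was not tested.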

How the data were processed

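ATAC-seq and H3K4me3 peak lists of cultured NSPCs were analysed, 1 list per library, as the authors deposited them. The authors trimmed the ATAC-seq reads with Trim Galore 0.4.0, aligned them to mm10 with Bowtie2 2.2.5, removed duplicates with Picard 1.88 and SAMtools 1.3.1 and called peaks in each library with MACS at an FDR of 0.05. H3K4me3 peaks were called by the authors as broad peaks against input. The deposited fold enrichment is a ratio on a linear scale, not normalized between libraries, and the deposited −log10 p and q-values grow with depth. The score that the authors deposited is a whole-number form of −log10 q and was not used. Read counts were not used here, so depth limits which weak sites were called, and no detection limit or interval is given.

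Peaks on autosomes, X and Y that overlapped or abutted were merged over the 6 ATAC-seq lists, and each site took its strongest peak in each library. Sites and genes were joined by GENCODE M21 on GRCm38, the build of the files: the summit (the middle of an H3K4me3 peak) had to lie in the gene or within 50 kb, with the nearest protein-coding TSS belonging to that gene. A promoter site had a TSS within 1 kb. Sites with a peak in all 6 libraries were tested with limma 3.58.1 in R 4.3.3 (log2 fold enrichment, quantile normalization, state as the only term, empirical Bayes with trend, two-sided) with Benjamini-Hochberg adjustment over 23116 sites; the step was tested on simulated data. H3K4me3 regions, with 1 library a state, were compared by ratio, with the median ratio taken out. p-values measure the spread between these libraries. Sites named were the promoter site of each gene, every called or state-specific site that the results turn on, and the strongest site away from a promoter. Python 3.11.15, numpy 2.4.6, pandas 2.3.3 and matplotlib 3.10.9 were used. The genes, the lists and the tests were chosen with earlier results of these data known. The result of 1 of the motif searches is not reported here.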

Additional observations from a re-analysis of the deposited data

How the results depend on the processing

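The count of the 26 tested sites called higher in quiescent than in activated NSPCs was 6, and 5 to 8 with lists cut to the shortest, with peaks merged only where they shared bases, by the nearest gene 5′ end, with 25 kb flanks or with libraries centred on their median. For the replicate block it was 7, with 2 higher in activated NSPCs, and the block left the counts of the reactivated contrasts at 4 and 4, and at 2 and 7. Same-numbered libraries did not deviate together (r of 0.01, 0.03 and -0.005 across sites), so the numbers do not pair the cultures. Peaks with a −log10 q of at least 10 gave 3 sites higher in quiescent and 0 higher in activated NSPCs, 1 higher and 2 lower in reactivated than in activated NSPCs, and 0 higher and 4 lower in reactivated than in quiescent NSPCs, with 13 sites in all 6 libraries, 6 quiescent-specific and 5 activated-specific, since fewer peaks entered. Lists cut to the 47037 strongest peaks gave 8 quiescent-specific and 12 activated-specific sites, and 1 site higher in reactivated than in quiescent NSPCs. Flanks of 25 kb gave 1 site higher in activated than in quiescent NSPCs and 1 higher in reactivated than in quiescent NSPCs.

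Fold enrichment as deposited, with no scaling, gave 3 sites higher and 3 lower in quiescent than in activated NSPCs (1.91% and 9.46% of all sites), 12 higher and 0 lower in reactivated than in activated NSPCs (52.6% and 0.472%), and 14 higher and 1 lower in reactivated than in quiescent NSPCs (68.2% and 0.545%). The sign turned at the promoters of *Bmpr2* (0.076) and *Bmpr1a* (0.15) against activated NSPCs and of *Smad5* (0.18) against quiescent NSPCs. With a missing peak set at the lowest fold enrichment of its list, 91 sites were tested. Of these, 14 were higher and 9 lower in quiescent than in activated NSPCs, where 6.93% and 5.08% of all sites were. There were 0 in either direction between reactivated and activated NSPCs, where 0.00401% and 0.0120% of all sites were called, and 10 higher and 15 lower in reactivated than in quiescent NSPCs, where 7.99% and 9.93% were. Most of the 14 and several of the 9 were state-specific sites, whose values in the other of these 2 states were all at the floor. Their calls follow from the missing peaks and are no separate support. At the *Nog* site 17.5 kb upstream, with no activated or reactivated peak, the fit still gave a log2 difference of -0.49 between these states. A value at the floor has no spread, and its part in these counts was not tested.

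With 1 library left out in turn, the counts ranged from 2 to 4 higher in quiescent and 1 to 3 higher in activated NSPCs. They ranged from 1 to 5 higher and 0 to 3 lower in reactivated than in activated NSPCs, and from 1 to 4 higher and 5 to 7 lower in reactivated than in quiescent NSPCs. Quiescent-specific sites ranged from 14 to 23 and activated-specific sites from 9 to 15, since fewer libraries had to hold or to lack a peak. The 23 were found without quiescent replicate 2, and the 15 without that library or without activated replicate 2. The lone library of a state was then assumed to vary like the others. The H3K4me3 counts of 3 wider and 2 stronger regions in quiescent NSPCs stayed at 3 and 2 with assignment by the nearest edge, with −log10 q of at least 10 and with 25 kb flanks. Weak sites below the threshold of peak calling were not detectable.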

Other observations

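Targets and inhibitors of BMP signalling outside the 10 genes also had H3K4me3 regions that differed between the single quiescent and the single activated library. At *Atoh8*, a transcription factor induced by BMP, the region covered 5663 bp in quiescent and 2139 bp in activated NSPCs, with a fold enrichment over input of 45.6 and 17.6. At the promoter of *Id4*, an inhibitor of basic helix-loop-helix factors, it covered 3390 and 1932 bp, with 44.0 and 23.8. The promoter region of *Id1* was nearly equal in width, at 4510 and 4466 bp, but its fold enrichment was 57.9 and 35.6. *Bambi*, a decoy receptor, had 39.6 and 23.9, and *Grem1*, a secreted inhibitor, had 17.7 and 10.7.

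Not all went this way. Of 12 regions of the target genes, 2 were over 1.5-fold wider in quiescent and 3 in activated NSPCs. The 3 were weak regions of *Id2* (588 and 1066 bp, with 3.49 and 9.23), of *Id3* (613 and 996 bp) and a second region of *Id4* (437 and 984 bp), in quiescent and activated NSPCs. At *Skil*, which encodes a repressor that binds SMADs, the region was wider in quiescent NSPCs, at 7383 and 3408 bp, but its fold enrichment was lower, at 29.3 and 45.4. At *Smad3*, which transmits TGF-β and activin signals, it covered 2263 bp in quiescent and 3440 bp in activated NSPCs. Of 55 H3K4me3 regions of the 47 listed pathway genes, 6 were over 1.5-fold wider in quiescent and 4 in activated NSPCs, with the median ratio taken out, where 4.84% and 1.74% of all regions were. Fold enrichment was over 1.5-fold higher at 5 in quiescent and at 2 in activated NSPCs, where 3.38% and 2.76% of all regions were. There is no replicate and no test for these values.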
